A study of Mus musculus with 4 samples.

Results

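The S100 genes examined here were S100a4 and 9 relatives: S100a1, S100a6, S100a8, S100a9, S100a10, S100a11, S100a13, S100a14 and S100a16. Members were all probe sets that the platform annotation pairs with only 1 of these 10 symbols. That gave 13 probe sets of 9 genes, out of 18193 genes with such a probe set. S100a11 was left without a value, because its single probe set is also paired with other genes. The symbols were proposed with earlier results of the same comparison in view, the lower S100a4 signal of the positive cells among them. The members' differences, and the counts of members past a threshold, are therefore given as a description and not as a test of these genes. The samples were 4T1 cells, a mouse mammary carcinoma line grown in medium with bovine serum under normoxia. They formed 2 groups of 2 samples: CD44v8-10-positive cells and CD44v8-10-negative cells, where CD44v8-10 is a splice form of the surface receptor CD44 that carries variant exons. All cells were picked by hand under a dissecting microscope, and total RNA was hybridised to 1 one-colour Affymetrix array per sample. The labels do not say that the 2 samples of a group came from separate cultures, so the spread between them may be technical. The comparison asked how far positive and negative cells of the same line differ in gene expression.

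S100 proteins are small calcium-binding proteins with a pair of EF-hand motifs. Most form dimers that open a hydrophobic face on binding calcium and then dock onto a target protein, and several are also secreted and act on receptors such as RAGE and Toll-like receptor 4. S100a4, also called metastasin or fibroblast-specific protein, was found in metastatic mouse mammary tumour cells, binds non-muscle myosin heavy chains and is widely used as a mesenchymal marker. All 10 genes lie on mouse chromosome 3, and the stretch from S100a1 to S100a9 holds 12 protein-coding genes, of which 12 are S100 genes (RefSeq annotation of GRCm38.p6).

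Of these genes 3 are shown by the bases before their annotated start, because S100a4 and its near neighbour S100a6 gave different results in the same cells and S100a8 shares a promoter element with S100a4. The sequences are from RefSeq on GRCm38.p6, plus strand, and end at the base before the annotated start. Capitals mark TATAAA, the core of a TATA box. They cover chr3:90603650-90603769 for S100a4, chr3:90612774-90612893 for S100a6 and chr3:90668951-90669070 for S100a8.
S100a4: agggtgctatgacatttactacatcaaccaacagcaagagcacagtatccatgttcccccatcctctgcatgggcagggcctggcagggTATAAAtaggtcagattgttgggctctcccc
S100a6: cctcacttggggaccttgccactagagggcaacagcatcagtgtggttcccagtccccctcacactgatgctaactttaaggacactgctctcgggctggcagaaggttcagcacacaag
S100a8: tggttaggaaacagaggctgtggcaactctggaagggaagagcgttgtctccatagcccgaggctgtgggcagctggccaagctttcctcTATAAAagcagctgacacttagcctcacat
The first base of the TATAAA run lies 31 bases before the start in S100a4 and 30 in S100a8. In the 250 bases before each annotated start, searched on both strands, TATAAA was found for S100a4 and S100a8 and for none of the other 6 listed genes with a promoter entry (S100a1, S100a6, S100a9, S100a11, S100a13 and S100a16). Of all 32851 promoters, 12.4% hold it. The E-box CAGGTG, a sequence bound by repressors of epithelial genes, was in neither the S100a4 nor the S100a6 window, and was found for S100a9 and for 1 of the 2 starts of S100a16, against 17.2% of all promoters. The AP-1 sequence TGANTCA was found for S100a11 and for the other start of S100a16, against 6.75% of all promoters. No window of a listed gene held more than 1 kind of motif. A match describes letters in a window and is not a measured binding site.

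The deposited arrays were not equally bright, with 2% trimmed mean signals of 237 and 220 in the positive samples, against 196 and 345 in the negative samples, so signals were quantile normalized. Differences are positive minus negative on the log2(signal + 16) scale, with the standard error (SE) of a limma fit over 11956 genes. A probe set entered the fit if its mean log2 value reached the 40th percentile, which corresponds to a signal of 19.4. Of the 13 member probe sets 8 did, and these belonged to 5 genes: S100a1, S100a4, S100a6, S100a10 and S100a13. The epithelial markers Krt8, Krt18, Krt7, Krt19, Epcam and Cdh1 were all above the filter in these carcinoma cells.

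S100a4 signals were lower in both CD44v8-10-positive samples, a difference that did not pass the threshold over all genes (an adjusted p of 0.05 by limma). Its 1 probe set (1424542_at) had normalized signals of 5259 and 4439 in the positive samples, against 8584 and 7242 in the negative samples. Both positive samples lay below both negative samples, and after normalization replicate 1 was the higher of the pair in each group. The means were 4849 ± 580 in positive cells and 7913 ± 949 in negative cells (SD, n = 2 each), so the positive cells carried 0.614 times the negative signal. The log2 difference was -0.70 ± 0.15 (SE). In the deposited values, before quantile normalization, the signals were 5213.5 and 4009 in the positive samples, against 7682.6 and 8690.6 in the negative samples. The groups did not overlap there either, but replicate 2 was the higher of the negative pair. The difference ranked 154th from the lowest of the 11956 genes tested. It was the lowest among the 257 genes whose mean log2 level lay within 0.5 of that of S100a4. S100a4 was chosen with this difference known, so both ranks only describe it. Esrp1, the epithelial splicing regulator which passed the threshold, had signals of 1348 and 1365 in the positive samples, against 64.1 and 30.9 in the negative samples. The brightest probe set of Cd44 gave 3550 and 2840 in the positive samples, against 3050 and 2827 in the negative samples, which overlap.

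**Figure D1:**
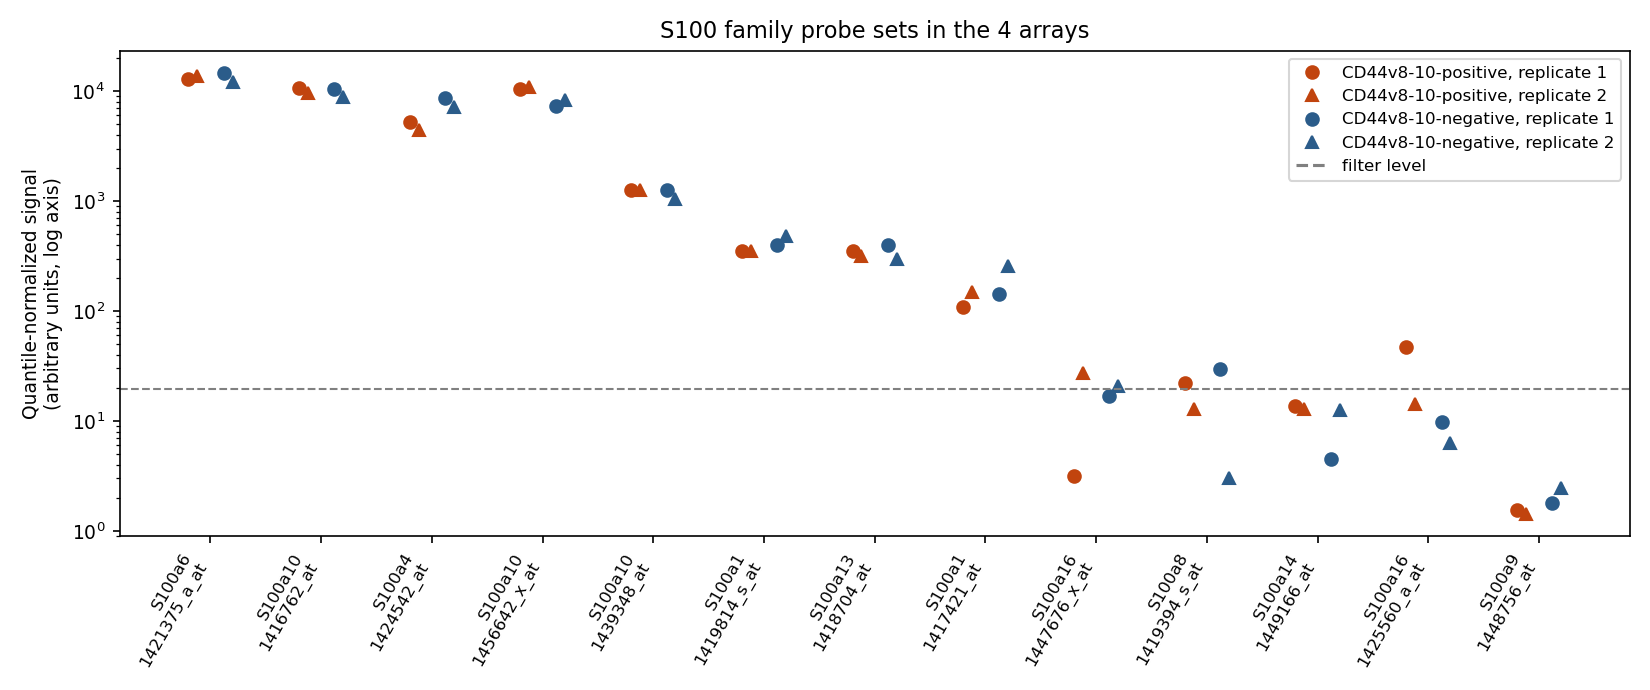
Quantile-normalized signal (log axis, arbitrary units) of the 13 S100 probe sets in each array, with positive samples on the left and negative samples on the right of each column, circles for replicate 1, triangles for replicate 2 and a dashed line at the filter level of 19.4. The S100a4 points of the positive samples (5259 and 4439) lie below those of the negative samples (8584 and 7242), while the S100a6 points overlap. Signals of different probe sets are not comparable with each other.

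S100a6, or calcyclin, binds annexins and the ubiquitin-ligase adaptor CacyBP, and its gene lies close to S100a4, with S100a5 between them. S100a6 was bright in every array, with normalized signals of 12911 and 13836 in the positive samples, against 14670 and 12213 in the negative samples. Both positive values lay between the 2 negative values. The log2 difference was -0.0021 ± 0.12 (SE), and its sign turned with the scaling: centring each array on its median gave 0.09, and one trimmed mean for all arrays gave 0.20.

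S100a10, or p11, is the light chain that joins a pair of annexin A2 molecules and, unlike its relatives, no longer depends on calcium. It had 3 probe sets above the filter, and they did not give the same difference. The brightest (1416762_at) had 10589 and 9521 in the positive samples against 10355 and 8778 in the negative samples, which overlap, with a log2 difference of 0.07 ± 0.13 (SE). A second (1439348_at) had 1273 and 1264 in the positive samples against 1254 and 1040 in the negative samples, where both positive values were higher, by 0.15 ± 0.19. The third (1456642_x_at), of a type that Affymetrix marks as possibly cross-hybridising, had 10381 and 10800 in the positive samples against 7373 and 8320 in the negative samples. Its groups did not overlap, with a log2 difference of 0.43 ± 0.13. The SEs of the last 2 values come from a fit of every probe set on its own. In that fit 0 S100 probe sets passed the threshold. Among all genes tested 18.5% were likewise separate and higher in the positive samples. Which transcripts the third probe set reads was not tested.

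S100a1, best known as a regulator of calcium handling in heart muscle, had lower mean signals in the positive cells for both of its probe sets, a difference that did not pass the threshold. Its brighter probe set (1419814_s_at) had normalized signals of 354 and 351 in the positive samples, against 402 and 477 in the negative samples. Its other probe set (1417421_at) had 109 and 150 in the positive samples, against 142 and 255 in the negative samples. The groups were separate in the first and overlapped in the second, and in both the highest value was that of negative replicate 2, the array with the highest trimmed mean before normalization. The log2 differences were -0.30 ± 0.22 (SE) and -0.53 ± 0.30. In the deposited values the first probe set overlapped between groups, with 323.2 and 310 in the positive samples, against 308.1 and 677.6 in the negative samples.

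S100a13, which takes part in the release of FGF1 and interleukin-1 alpha from cells without a signal peptide, did not separate the groups. Its signals were 349 and 314 in the positive samples, against 395 and 294 in the negative samples, with a log2 difference of -0.04 ± 0.23 (SE). Its gene is the next along the chromosome from S100a1, and the annotated starts used here face away from each other with 104 bases between them.

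**Figure D2:**
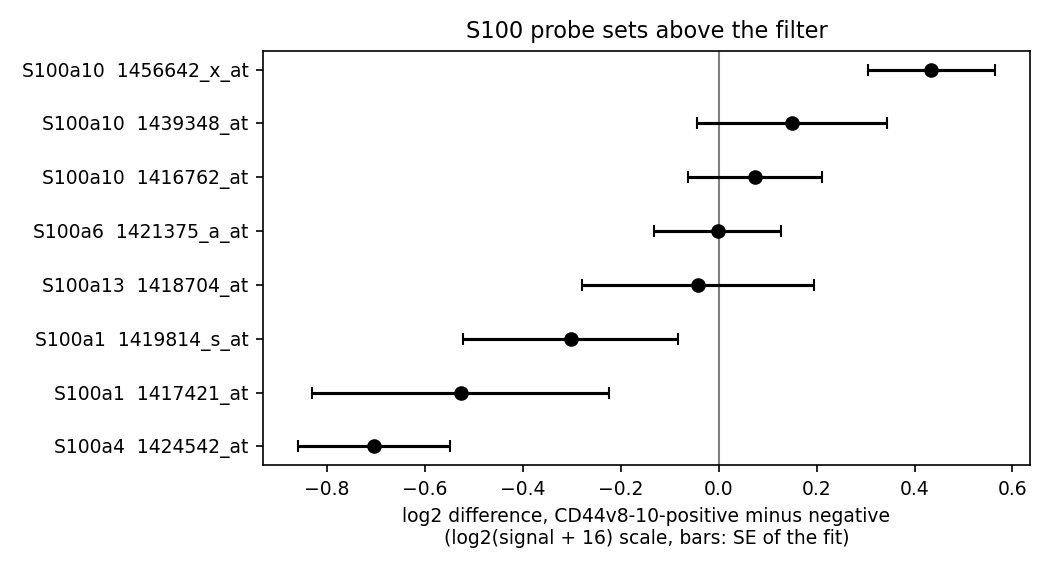
Log2 difference (positive minus negative, log2(signal + 16) scale) of the 8 S100 probe sets above the filter, with bars for the SE from a fit of every probe set on its own. S100a4 lies lowest at -0.70 and the third S100a10 probe set highest at 0.43, and the 3 probe sets of S100a10 are spread from 0.07 to 0.43.

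S100a8 and S100a9, which pair as calprotectin, the main calcium-binding protein of neutrophils, were close to the floor of the arrays. S100a8 had signals of 22.2 and 12.9 in the positive samples, against 30.0 and 3.03 in the negative samples. S100a9 stayed between 1.43 and 1.55 in the positive samples and between 1.80 and 2.48 in the negative samples. Neither reached the filter, so no fold is given for them. Of 8 neutrophil markers with a probe set, Ngp alone was above the filter, at 33.6 and 64.2 in the positive samples against 9.85 and 21.0 in the negative samples. The summed signal of the 8 was 84.5 and 113 in the positive samples, against 62.7 and 66.4 in the negative samples. Ngp was the largest part of both positive sums, and its mean in the negative samples, 15.4, lay under the filter level. The defining markers Mpo, Elane, Csf3r, Camp and Ltf were all below the filter. Mpo was lower in the positive samples, at 8.3 and 9.3 against 27.8 and 17.3 in the negative samples. Mmp8, also below the filter, was higher, at 8.3 and 4.2 against 0.7 and 1.35.

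S100a14 and S100a16 are found in epithelia and can form a joint dimer in human cells. S100a14 had 13.6 and 12.7 in the positive samples, against 4.55 and 12.6 in the negative samples. The 2 probe sets of S100a16 went opposite ways. One (1425560_a_at) had 47.4 and 14.3 in the positive samples against 9.85 and 6.25 in the negative samples, and the other (1447676_x_at) had 3.18 and 27.1 in the positive samples against 16.8 and 21.0 in the negative samples. All 3 were below the filter. For both S100a16 probe sets the gap between the positive replicates was larger than that between group means.

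Taken over the genes that could be tested, 0 of the 5 S100 genes passed the threshold of 0.05 on limma's two-sided p after Benjamini-Hochberg adjustment across 11956 genes, where 9 genes, or 0.0753% of all tested, did and 0 of those were lower in the positive cells. At an unadjusted p under 0.05 the count was 1 of 5, S100a4, beside 4.45% of all genes. The groups did not overlap in 2 of the 5, S100a4 and S100a1, both lower, where 13.8% of all genes were separate and lower, 18.5% separate and higher and 32.3% separate in either direction. Each gene was counted by its brightest probe set. The other S100a1 probe set overlapped, and the other 2 of S100a10 were separate and higher. The median log2 difference was -0.04 over the 5 genes and 0.03 over all genes. Since the members were chosen with this comparison known, nothing is read from these counts. Without negative replicate 2 S100a4 was past the threshold, with a log2 difference of -0.89. The negative group is then 1 array, assumed to vary like the positive arrays, and the gene was chosen with its difference known, so this too is a description, and leaving out any of the other 3 arrays gave 0 S100 genes past it.

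Within each array the S100a4 signal can be set against that of another S100 probe set, and a scale factor common to all probe sets of an array cancels in the ratio. A change that differs between bright and dim probe sets does not cancel. The ratio restates the S100a4 values that were known when the members were chosen and is given as a description. In the deposited values S100a4 was 0.399 and 0.288 times S100a6 in the positive samples, against 0.549 and 0.679 times S100a6 in the negative samples. The ratio was lower in both positive samples, by 0.85 on the log2 scale. Against the brightest S100a10 probe set the ratios were 0.483 and 0.435 in the positive samples, against 0.827 and 0.873 in the negative samples, again separate. Against S100a13 they were 16.4 and 14.5 in the positive samples, against 25.4 and 20.4 in the negative samples. Against S100a1, one of the dimmer members, the groups overlapped: with the brighter S100a1 probe set the ratio was 16.1 and 12.9 in the positive samples, against 24.9 and 12.8 in the negative samples.

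**Figure D3:**
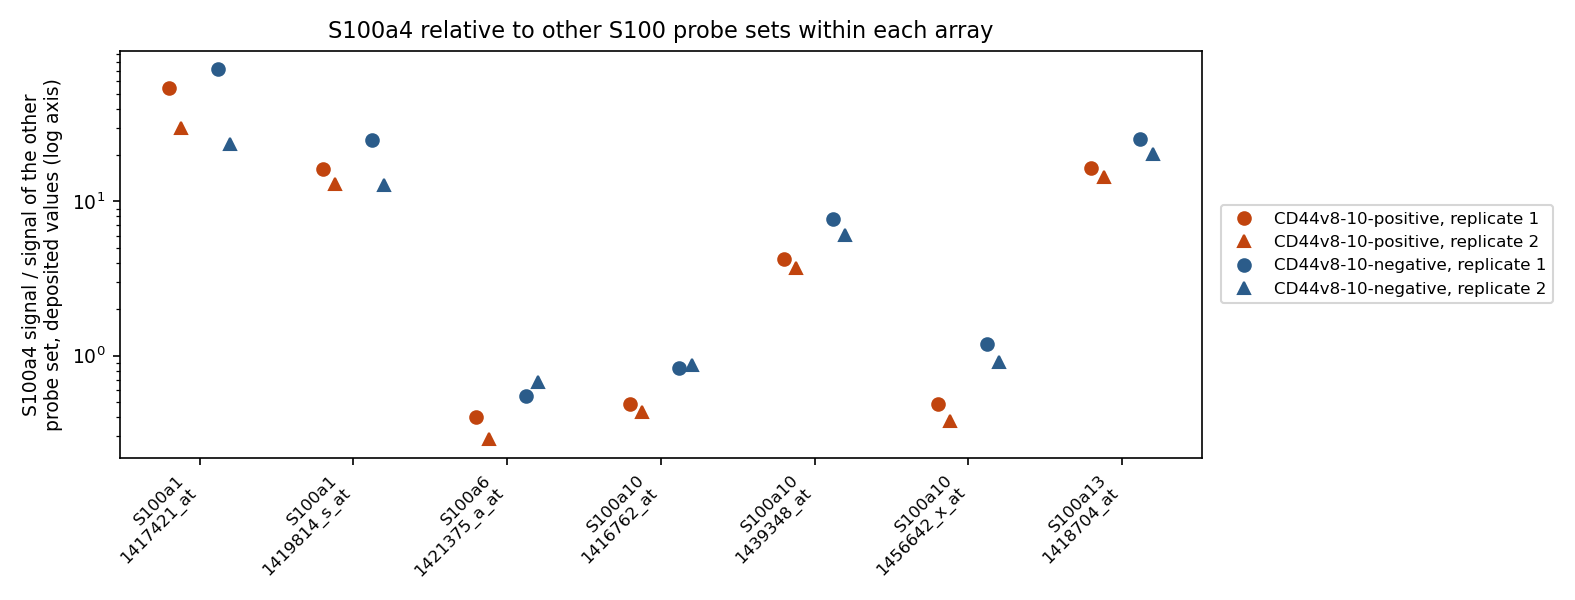
Ratio of the deposited S100a4 signal to that of each other S100 probe set above the filter within the same array (log axis, no unit), with positive samples left and negative samples right in each column. Positive samples lie below negative samples against S100a6, S100a10 and S100a13, and the groups overlap against both S100a1 probe sets.

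The nearest tested S100 genes on either side of S100a4 overlapped between the groups, while S100a1, further off, was separate and lower at -0.30 ± 0.22 (SE). From S100a1 on, the genes run S100a1, S100a13, S100a14, S100a16, S100a3, S100a2, S100a4, S100a5, S100a6, S100a7a, S100a8 and S100a9. The nearest tested genes on either side of S100a4 were S100a3 and S100a5, S100 genes outside the 10. S100a3, known from hair follicles, had 115 and 198 in the positive samples, against 174 and 117 in the negative samples, with a log2 difference of 0.08 ± 0.29 (SE). S100a5, close to the filter level of 19.4, had 31.3 and 32.7 in the positive samples, against 31.6 and 21.1 in the negative samples. Its log2 difference was 0.19 ± 0.38. The genes before S100a1, Chtop, Snapin and Ilf2, had 0.03, 0.13 and 0.14. Of 7 other S100 genes listed, 4 had a probe set of their own, and S100b and S100g were below the filter.

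**Figure D4:**
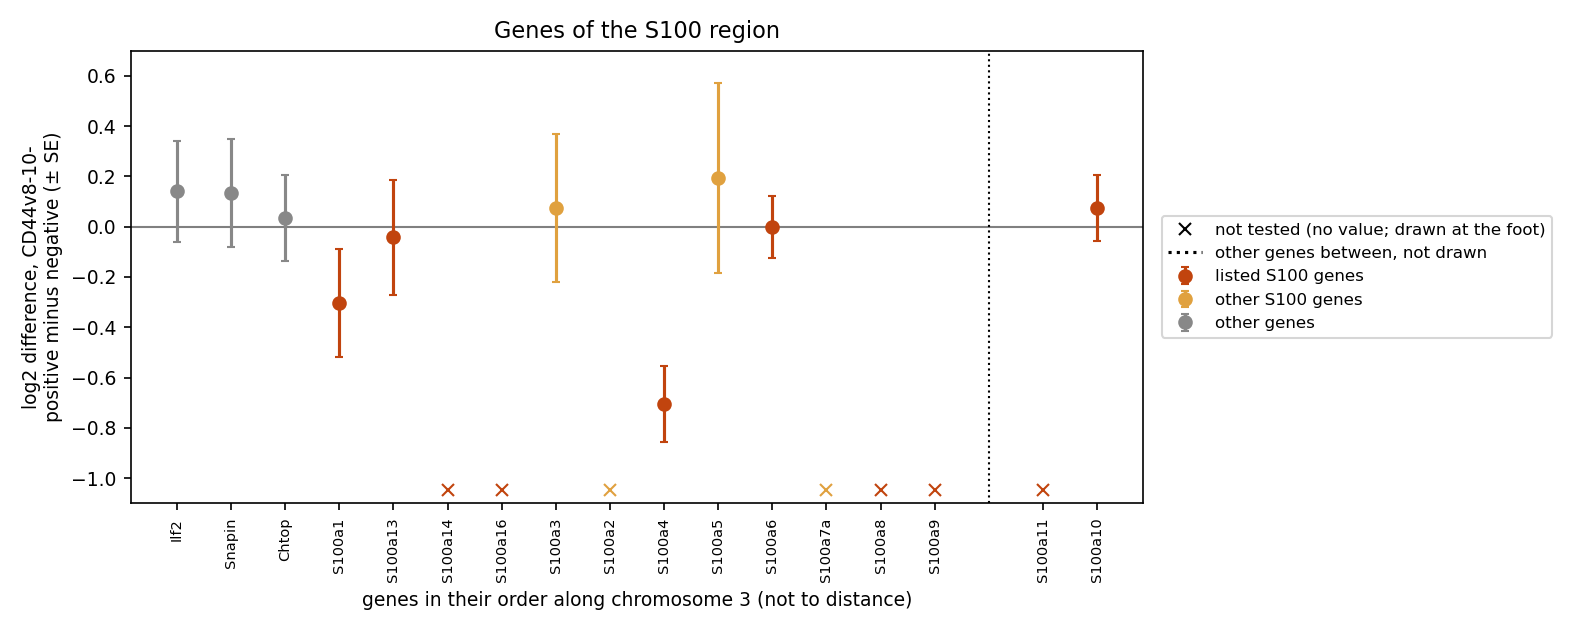
Log2 difference (positive minus negative, bars for SE) of genes in their order along mouse chromosome 3, not to distance, with crosses at the foot for genes that were not tested and a dotted line where other genes are left out. S100a4 lies at -0.70, between S100a3 at 0.08 and S100a5 at 0.19.

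The proteins that S100 family members bind or signal through were counted from a list of 33 genes, of which 27 were tested. None passed limma over all genes (0 of 27, beside 0.0753% of all genes), and at an unadjusted p under 0.05 there were 2 higher and 0 lower, or 2 of 27 beside 4.45% of all genes. Of the 27, 16 lay above 0 and 11 below, with a median log2 difference of 0.03, beside 0.03 over all genes. The 4 brightest were Anxa1, Anxa2, Ahnak and Cacybp. Annexin A1, a partner of S100a11, had 0.18 ± 0.13 (SE), and annexin A2, the partner of S100a10, 0.03 ± 0.12. Ahnak, a large scaffold bound by the annexin A2 and S100a10 complex, had -0.01 ± 0.15. Cacybp, the S100a6 binding protein, had 5035 and 4327 in the positive samples against 5359 and 5351 in the negative samples, a difference of -0.20 ± 0.15.

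The largest differences on this list were those of Myh14 and Il1a. Myh14, the heavy chain of non-muscle myosin IIC, had signals of 76.4 and 107 in the positive samples, against 12.3 and 30.0 in the negative samples. Both positive values were higher, with a log2 difference of 1.56 ± 0.36 (SE) and a limma adjusted p of 0.363. One negative value lay below the filter level, so the fold is no exact size. Myh9 and Myh10, which encode the myosin heavy chains IIA and IIB and include the main target of S100a4, had log2 differences of -0.0032 ± 0.23 and 0.07 ± 0.18. Il1a, interleukin-1 alpha, whose release involves S100a13, had 128 and 74.7 in the positive samples, against 60.1 and 37.0 in the negative samples, with 0.84 ± 0.33 and a limma adjusted p of 0.985. The lowest were Rad54b, a DNA repair helicase bound by S100A11 in human cells, at -0.40 ± 0.27 (limma adjusted p 0.985), and Sugt1, a co-chaperone bound by S100a6, at -0.35 ± 0.20 (limma adjusted p 0.985). The receptor gene Tlr4 had -0.19 ± 0.23, and Bsg, whose product is a receptor for S100A9 in human cells, 0.06 ± 0.17.

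**Figure D5:**
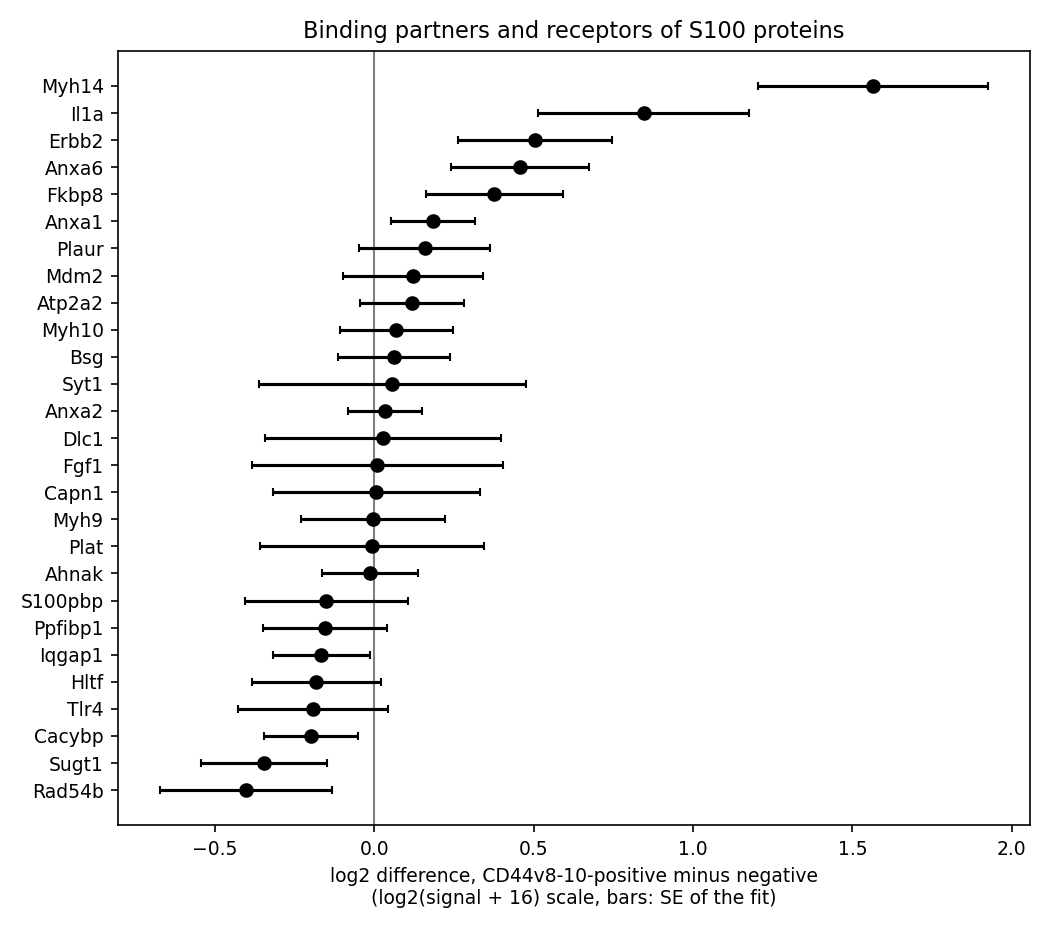
Log2 difference (positive minus negative, log2(signal + 16) scale) of the 27 tested binding partners and receptors of S100 proteins, with bars for the SE. Myh14 at 1.56 and Il1a at 0.84 lie highest and Rad54b at -0.40 lowest, and none passed an adjusted p of 0.05.

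S100a4 is also a fibroblast marker, so genes of fibroblasts were set beside it. Of 10 fibroblast markers 3 were above the filter, Pdgfra, Col1a2 and Pdpn. The summed signal of all 10 was 207 and 162 in the positive samples, against 233 and 221 in the negative samples. Both positive sums were lower, the same order as S100a4, and Pdgfra was the largest part of both negative sums. Pdgfra had 47.0 and 33.6 in the positive samples against 108 and 76.6 in the negative samples. Pdpn went the other way, with 28.0 and 31.1 in the positive samples against 17.0 and 21.8 in the negative samples. The defining collagen genes Col1a1 and Col3a1 were below the filter and Col1a2 stayed between 38.6 and 48.3 in all 4 arrays. Of 10 macrophage markers 5 were above the filter. The summed signal of all 10 was 518 and 693 in the positive samples, against 463 and 417 in the negative samples, the reverse order to S100a4. Cd14 was the largest part of each sum, at 226 and 259 in the positive samples against 188 and 180 in the negative samples. Laptm5 overlapped between the groups, and Ptprc, Itgam, Fcer1g, Tyrobp and Lyz2 were below the filter. The 6 epithelial markers all had log2 differences above 0 beside the lower S100a4 signal, where the median over all genes was 0.03. Krt8, at 0.06 ± 0.13 (SE), Krt18, at 0.08 ± 0.13, and Cdh1, at 0.28 ± 0.22, overlapped between the groups. Epcam rose by 1.34 ± 0.18 on the log2 scale (SE, limma adjusted p 0.0118), and Krt7, at 0.49 ± 0.15, and Krt19, at 0.57 ± 0.20, were separate and higher in the positive samples without passing. The part of other cells in the S100a4 difference was not tested beyond these levels, and in bulk RNA fewer cells with the transcript and less of it per cell cannot be told apart.

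By the root mean square difference of centred log2 values over the 4 arrays, the genes nearest to S100a4 were Zfp605 (0.050), Pik3r1 (0.054), Tmem158 (0.055), Peak1 (0.059) and Zfp189 (0.060). Pik3r1, a regulatory subunit of PI3-kinase, had signals of 174 and 137 in the positive samples, against 272 and 220 in the negative samples. Peak1, a cytoskeletal pseudokinase, had 581 and 478 in the positive samples, against 871 and 815 in the negative samples. Each of the 5 was lower in both positive samples, which the choice by likeness fixes. With 4 arrays such nearness describes these samples only, and 23 of 11956 genes came within 0.1.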

How the data were processed

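The authors' deposited values were linear probe set intensities from 4 one-colour Affymetrix arrays, 0.1 to 22695.6 over 45101 probe sets, per the table itself. The submitters' processing notes name GCOS without a role. How probe sets were summarised, corrected and scaled is not given in the sources used here. Precision is limited by the small number of arrays. Groups were taken from the sample titles. Members and gene lists were chosen with earlier results of these data known. Intensities were quantile normalized and put on a log2 scale after adding a pseudocount of 16. The 64 control probe sets were dropped, probe sets with a mean below the 40th percentile were left out, and the brightest probe set of each single gene symbol (platform annotation of 2016) was fitted with limma 3.58.1 (R 4.3.3), using moderated variances with a trend on intensity and two-sided p-values adjusted by Benjamini-Hochberg. The fit was also run on simulated data with independent noise. The differences planted there were larger than that of S100a4, so no result here rests on it. Genes named were the 10 members, other S100 genes above the filter, the 4 brightest, 2 highest and 2 lowest partners, the 5 genes nearest to S100a4, and Esrp1 and Cd44. Myh9, Myh10, Tlr4, Bsg, the genes before S100a1 and the markers given singly were picked with their values in view. Alternatives were other scalings, pseudocounts of 1 and 64, no filter or one at the 60th percentile, other choices of probe set, other limma priors, a block for the replicate number, and each array left out in turn. Sequences and gene order came from RefSeq tables of GRCm38.p6.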

Additional observations from a re-analysis of the deposited data

How the results depend on the processing

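Across 16 other settings the S100a4 difference was below 0 in 16, from -0.89 to -0.56, and that of S100a1 in 16, from -0.53 to -0.19. For S100a4 many of these settings could not change the difference. Those of the filter, the choice of probe set, the limma prior and the block all gave -0.70. The count of 16 is therefore no measure of how stable the difference is. Leaving out each array gave -0.89 (without negative replicate 2) to -0.56 for S100a4, and 0 to 1 S100 genes called. The other members turned sign: S100a6 ran from -0.14 to 0.20, S100a10 from -0.04 to 0.34 and S100a13 from -0.26 to 0.16. The value of 0.34 came without negative replicate 1, where 1456642_x_at became the brightest S100a10 probe set, and the mean of its probe sets gave 0.22. With no scaling between arrays the median over all genes was -0.15, against 0.03 with quantile normalization, and S100a4 was at -0.84. The count of all genes called, 9, was 25 with arrays centred on their medians, 3 with no scaling, 3 with no filter, 2 with no intensity trend, and 6 to 16 when 1 array was left out. Partners and receptors gave 0 calls in each of the settings. With the replicate number as a block, 18 genes were called and 1 of them was an S100 gene, S100a4. Deviations of same-numbered arrays correlated at 0.116 across genes, and the labels give no shared day or culture for a number, so the block is only a number shared. The cause of these changes was not tested. With 2 arrays per group and 1 S100a4 probe set, no second probe set checks its value.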
